A study of Caenorhabditis elegans with 6 samples.

Results

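The cuticle collagens of Caenorhabditis elegans are the structural proteins of its outer covering. They were taken here as every probe set whose single annotated gene is a numbered collagen gene (col-N) or 1 of 20 collagen genes named for their mutants, among them dpy (dumpy), rol (roller), sqt (squat), bli (blister) and lon (long). This gave 146 genes on 166 probe sets, of 17118 genes with a probe set of their own, and they comprise 128 col-N genes and 18 genetically named ones. The names dpy-10 and ram-4 had no probe set of their own. Affymetrix arrays measured the RNA of whole worms at L4, the last larval stage, in 2 groups, atfs-1(et18) mutants and the wild-type strain N2, with 3 biological replicates each. Both were synchronised by bleaching and raised on solid medium with the bacterial food E. coli OP50. The bZIP protein ATFS-1 turns on the unfolded protein response of mitochondria, and the allele et18, a point mutation, is known for activating it constitutively. The labels name no other allele, no treatment and no number of worms per sample.

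The cuticle is a collagen-rich matrix that the hypodermis secretes beneath the old one before each molt. Its collagens are short Gly-X-Y proteins that are hydroxylated on proline, assembled as trimers, cleaved and then cross-linked through tyrosine. Their transcripts rise and fall with every molting cycle, different collagens at different times within it, and late L4 worms make the adult cuticle. In whole-worm RNA, fewer cells of a type and less RNA per cell cannot be told apart.

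The trimmed mean of the deposited signals was 500.2 on every array, and array medians lay between 111.1 and 137.6. Correlations over tested probe sets were 0.937 to 0.973 within genotypes and 0.895 to 0.941 between them. A single axis held 55.1% of the variation within genotypes. With 3 arrays a genotype, precision is limited throughout. The atfs-1 transcript had signals of 346, 355 and 289 in atfs-1(et18) worms against 207, 284 and 277 in wild-type worms, which for a point mutation is no check of the labels. Markers of hypodermis (5 of 5), muscle (6 of 6), intestine (6 of 6), neurons (6 of 6) and germline (9 of 9) all passed the filter on dim probe sets, and 5 of 6 sperm markers did.

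Few cuticle collagens passed the threshold for a difference between the genotypes. With 3 arrays a genotype, few calls do not show that the differences were small. Of 146 genes, 113 passed the filter, which asked that 3 or more of the 6 arrays show a signal over their own 40th percentile. Of these 113, 3 fell in atfs-1(et18) worms and 0 rose (limma, Benjamini-Hochberg adjusted p under 0.05). The 3 were col-41, col-39 and col-146. Over all 10613 genes tested, 1.37% fell and 2.69% rose, so that 4.06% were called (3.93% of the 13792 probe sets). At an unadjusted p under 0.05 the collagens numbered 20 lower and 5 higher, where 7.35% of all genes were lower and 10% higher. The median change of the 113 genes was -0.11 on the log2 scale, against 0.00 for all genes tested, and 74 changes were negative and 39 positive. Of the 113 collagens, 2 changed by 2-fold or more in either direction, against 612 of all 10613 genes tested.

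**Figure D1:**
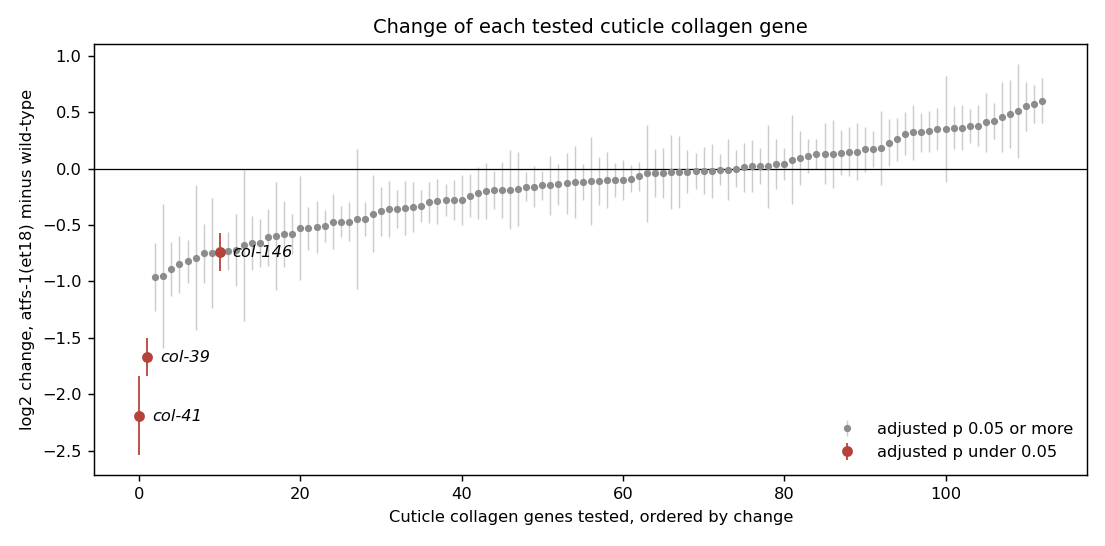
Log2 change (atfs-1(et18) minus wild-type) of the 113 cuticle collagen genes tested, ordered from the lowest to the highest, with bars for the standard error of the limma fit. The 3 genes with an adjusted p under 0.05 are red and named. The lowest are col-41 at -2.19 and col-39 at -1.67, and the highest change is 0.60.

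The number called depended on single arrays. Without wild-type replicate 2, 1 collagen was called lower, col-39, in a fit that called 179 of all 10613 genes. Without wild-type replicate 1, 4 were called lower and 2 higher (col-48 and col-77), with 699 of all genes called. With limma's array weights, 17 were called lower and 6 higher, in a fit that called 1298 genes in all. The fit with every array and no weights called 431.

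The clearest fall was that of col-39 (C09G5.4, chromosome II), a cuticle collagen gene. Its signals were 1038, 876 and 945 in atfs-1(et18) worms against 2607, 3658 and 2926 in wild-type worms. Every mutant array lay well below every wild-type array, and the mutant replicates lay close together. The means were 953 ± 81.2 in atfs-1(et18) and 3064 ± 539 in wild-type (SD, n = 3 each), a change of -1.67 ± 0.17 on the log2 scale (SE, limma adjusted p = 0.00112), or 3.19-fold lower. It was called in all 19 alternatives, with changes of -1.78 to -1.54 and adjusted p of 0.000111 to 0.00999.

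The largest change was that of col-41 (T10B10.1, chromosome X), a collagen gene reported elsewhere to respond to the BMP-like signal that sets body size. Signals were 349, 322 and 199 in atfs-1(et18) worms against 1453, 1923 and 764 in wild-type worms. The groups did not overlap, although wild-type replicate 3 was low for its genotype. The change was -2.19 ± 0.35 (SE, limma adjusted p = 0.0106), or 4.57-fold lower. Its probe set carries the s_at suffix of sets that match more than 1 transcript, and the call ended without wild-type replicate 2 (adjusted p = 0.0540; range over 18 alternatives 0.00237 to 0.0540).

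The third call was that of col-146 (T06E4.6, chromosome V), another numbered cuticle collagen. Signals were 9467, 13612 and 10236 in atfs-1(et18) worms against 16600, 20338 and 18207 in wild-type worms. All mutant arrays again lay below all wild-type arrays, by a smaller factor. The change was -0.74 ± 0.17 (SE, limma adjusted p = 0.0479), or 1.67-fold lower. This call ended in 8 of 18 alternatives (adjusted p 0.00436 to 0.225), among them those without atfs-1(et18) replicate 1 (0.225) or 3 (0.129) and without wild-type replicate 2 (0.204) or 3 (0.128). The probe set is an x_at set, which can bind other transcripts.

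**Figure D2:**
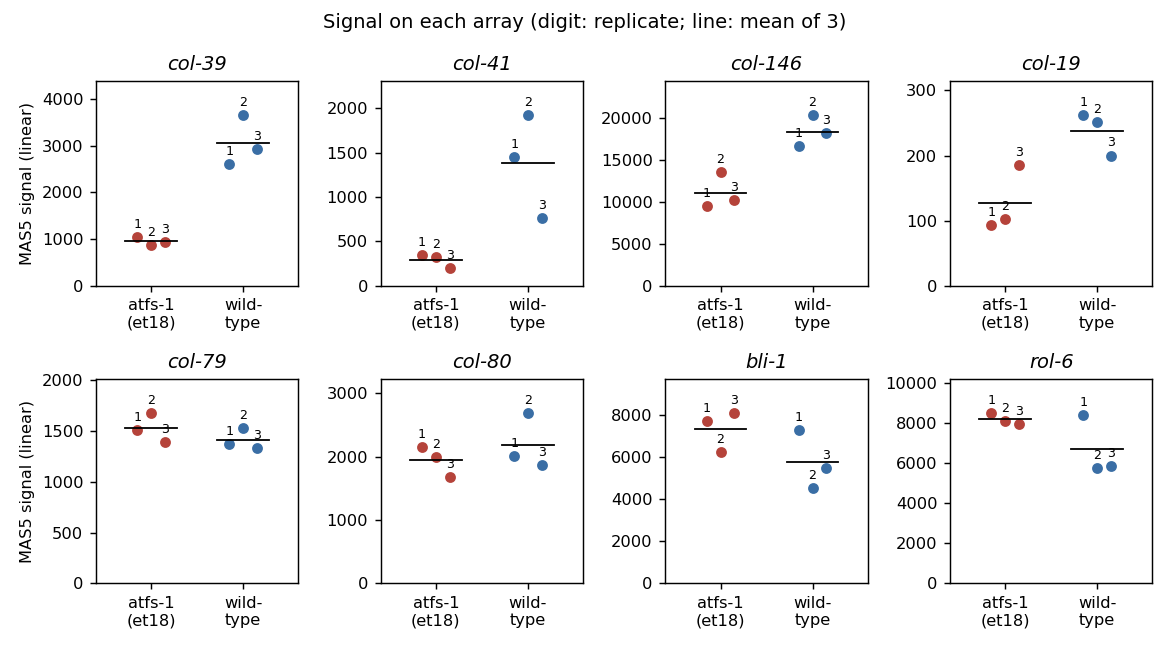
Linear MAS5 signal on each array for 8 cuticle collagens, with atfs-1(et18) worms in red on the left, wild-type worms in blue on the right, digits for the replicate and a line for the mean of 3. For col-39, col-41, col-146 and col-19 the mutant arrays all lie below the wild-type arrays. For col-79, col-80, bli-1 and rol-6 the groups overlap.

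Several collagen genes lie next to each other, and neighbours did not always change alike. In the gene order of assembly WBcel235, col-39 stands between col-79 and col-80, with bli-1 after col-80. Signals of col-79 were 1510, 1677 and 1391 in atfs-1(et18) worms against 1370, 1531 and 1331 in wild-type worms. Those of col-80 were 2152, 1992 and 1678 in atfs-1(et18) worms and 2005, 2691 and 1862 in wild-type worms. Both neighbours overlapped between the genotypes, with changes of 0.11 ± 0.15 for col-79 and -0.16 ± 0.18 for col-80 (SE), while col-39 fell. By contrast col-147, which lies near col-146 with 1 other protein-coding gene between, had signals of 12240, 15106 and 10693 in atfs-1(et18) worms against 17026, 22991 and 16978 in wild-type worms. Here too the genotypes did not overlap. The changes on the 2 probe sets of col-147 were -0.58 ± 0.18 and -0.82 ± 0.19 (SE, limma adjusted p = 0.137 and 0.0502). Both are x_at sets, as is that of col-146, and such sets can bind other transcripts. Groups were formed of collagen genes with at most 1 other protein-coding gene between neighbours. Of 9 such groups with at least 2 members tested, 6 had negative changes only, 3 had both signs and 0 had positive changes only. Among all tested collagens 65.5% had a negative change. That is a share of single genes, not of groups, and no matching share of groups was computed. In the pairs col-146 and col-147, col-159 and col-160, and dpy-13 and col-34, all negative, both genes are on x_at sets.

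The furrow collagens shape the circumferential grooves of the cuticle, and loss of any of them gives a dumpy worm. All 5 with a probe set passed the filter, dpy-2, dpy-3, dpy-7, dpy-8 and dpy-9, and none was called (0 of 5 also at an unadjusted p under 0.05). Signals of dpy-7 were 2427, 1607 and 1499 in atfs-1(et18) worms against 2209, 3030 and 1801 in wild-type worms. The genotypes overlapped, and the change of dpy-7 was -0.35 with a 95% interval of -0.90 to 0.21. For dpy-8 the signals were 3287, 2749 and 3362 in atfs-1(et18) worms and 3119, 3289 and 3049 in wild-type worms. Its change was -0.01, with an interval of -0.33 to 0.30. Changes of the other 3 were -0.02 for dpy-2 (-0.39 to 0.35), -0.10 for dpy-3 (-0.50 to 0.30) and -0.02 for dpy-9 (-0.51 to 0.47). All 5 changes were negative with the signals as deposited (median -0.02) and 4 of 5 after quantile normalization. Their direction turned with single arrays, since 4 of 5 were positive without atfs-1(et18) replicate 2 (median 0.03) and 3 of 5 without wild-type replicate 1 (median 0.00).

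Of the 11 other body-shape collagens with a probe set, 10 passed the filter and 0 were called. The roller gene rol-6 had signals of 8522, 8117 and 7957 in atfs-1(et18) worms against 8429, 5770 and 5878 in wild-type worms. Wild-type replicate 1 lay among the mutant arrays and the other two below them, and the change was 0.32 with a 95% interval of -0.07 to 0.70 (limma adjusted p = 0.394). The gene sqt-3, whose product is needed for the embryo to keep its elongated shape, had a change of -0.30 (-0.71 to 0.11) on its x_at probe set and of -0.07 ± 0.12 (SE) on the other one. Its partner dpy-17 had a change of -0.11 (-0.58 to 0.37), and the annular collagen genes dpy-5 and dpy-13 had changes of 0.02 (-0.33 to 0.38) and -0.19 (-0.59 to 0.20). Signals of dpy-5 were 19830, 21616 and 22349 in atfs-1(et18) worms against 24281, 22004 and 17096 in wild-type worms, so that the wild-type replicates enclosed the mutant ones. The remaining changes were -0.12 for dpy-4 (-0.49 to 0.25), 0.04 for sqt-1 (-0.29 to 0.37), 0.04 for sqt-2 (-0.47 to 0.54), -0.14 for rol-8 (-0.55 to 0.27) and -0.04 for lon-3 (-0.52 to 0.44). A second probe set of rol-8 had the opposite sign, 0.24 ± 0.20 (SE). The gene dpy-14 did not pass the filter, with signals of 51.7, 58.0 and 66.6 in atfs-1(et18) worms and 33.2, 54.4 and 55.7 in wild-type worms.

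Collagens of the adult cuticle, which late L4 worms begin to make, did not move together. BLI-1 and BLI-2 form the struts between the layers of the adult cuticle. Signals of bli-1 were 7704, 6221 and 8087 in atfs-1(et18) worms against 7279, 4546 and 5489 in wild-type worms, a change of 0.36 (95% interval -0.08 to 0.81). Those of bli-2 were 10780, 8829 and 11249 in atfs-1(et18) worms and 9044, 6269 and 8577 in wild-type worms, a change of 0.38 (-0.02 to 0.78). In both genes wild-type replicate 2 was the lowest array and the genotypes overlapped. The adult-specific collagen gene col-19, a target of the developmental timing factor LIN-29, had signals of 93.2, 103 and 186 in atfs-1(et18) worms against 262, 251 and 200 in wild-type worms. All mutant arrays lay below all wild-type arrays, mutant replicate 3 close to them. The change was -0.96 ± 0.30 (SE) and missed the threshold (limma adjusted p = 0.143, range over alternatives 0.0292 to 0.415). Only the fit with array weights called bli-1, bli-2, rol-6 and col-19 (adjusted p = 0.0431, 0.0445, 0.0476 and 0.0292). The gene col-7, also adult-specific, had no probe set of its own. A probe set shared by col-62 and col-7, outside the members, had signals of 165, 272 and 227 in atfs-1(et18) worms. In wild-type worms they were 600, 367 and 314, all above the mutant ones.

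**Figure D3:**
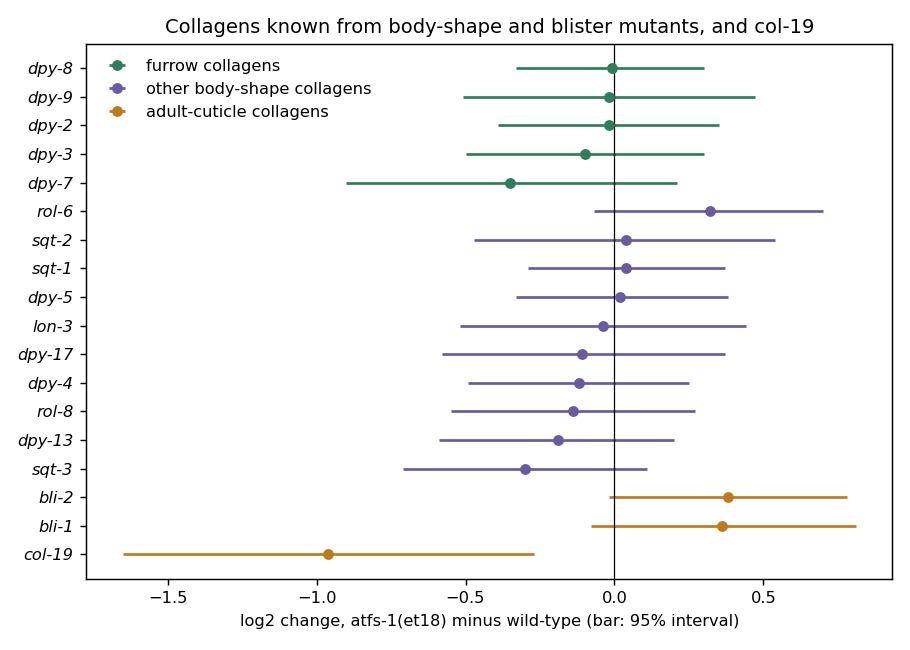
Log2 change (atfs-1(et18) minus wild-type) of the 17 genetically named collagens tested and of col-19, with 95% intervals of the limma fit, coloured by furrow, other body-shape and adult-cuticle genes. The interval leaves out 0 for col-19 alone, at -1.65 to -0.27, and adjustment over all probe sets does not keep that difference.

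Among the numbered collagens, 96 of 128 passed the filter. All mutant arrays lay below all wild-type arrays for 20 of the 113 genes (17.7%, against 10.4% of all genes tested), and above them for 6 (5.31%, against 12.9%). Each of the 26 is a col-N gene. The following were picked after their values were seen. Just outside the threshold on the lower side were col-149 on chromosome V and col-180 on chromosome X. The col-149 signals were 2008, 2630 and 2275 in atfs-1(et18) worms against 4286, 4000 and 3177 in wild-type worms (change -0.73 ± 0.17 SE, limma adjusted p = 0.0530). Those of col-180 were 1806, 1783 and 2151 in atfs-1(et18) worms against 4089, 3642 and 2566 in wild-type worms (-0.82 ± 0.19 SE, limma adjusted p = 0.0563). In both genes wild-type replicate 3 was the lowest of its genotype and still above every mutant array.

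The 6 genes with every mutant array above every wild-type array were col-14, col-38, col-48, col-76, col-111 and col-140, also named after their values were seen. Signals of col-14 were 12445, 9085 and 10719 in atfs-1(et18) worms against 8488, 7150 and 6072 in wild-type worms. Its change was 0.57 ± 0.17 (SE, limma adjusted p = 0.132). Signals of col-140 were 1185, 1375 and 1866 in atfs-1(et18) worms against 1106, 957 and 818 in wild-type worms, and its change of 0.60 ± 0.20 (SE) was the largest positive one (limma adjusted p = 0.173). Neither passed the threshold.

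The signal level of a probe set moved with the changes. A boundary at a mean signal of 10000 was set after the data were seen. Of the 25 collagen genes above it, 19 had a negative change, with a median of -0.19, and of the 265 other genes above it 87.9% had a negative change, with a median of -0.23. After quantile normalization these medians were 0.03 for the collagens and 0.02 for the other genes. Most of the 25 are on x_at probe sets, so signal level and kind of probe set overlap among them. With the signals as deposited, those on other probe sets were mostly positive. They were col-38 (0.13), col-63 (0.17), col-71 (0.17), col-109 (0.09), dpy-5 (0.02), sqt-1 (0.04) and rol-8 (-0.14). Probe sets of col-93, col-125, col-73, sqt-3 and dpy-4 had the 5 highest mean signals of the members. All 5 are x_at sets, their signals are no order of transcript abundance, and none was called. Signals of col-93 were 35338, 42583 and 24838 in atfs-1(et18) worms against 37295, 52358 and 38708 in wild-type worms. Mutant replicate 3 was lowest and wild-type replicate 2 highest, and the change of -0.34 ± 0.22 (SE) did not pass (limma adjusted p = 0.486). Up to a signal of 10000, the 88 collagens had a median change of -0.06 (-0.08 after quantile normalization). Leaving out single arrays, this ran between -0.19 without wild-type replicate 3 and 0.00 without wild-type replicate 1, and the median above 10000 between -0.31 without wild-type replicate 3 and -0.13 without atfs-1(et18) replicate 3.

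**Figure D4:**
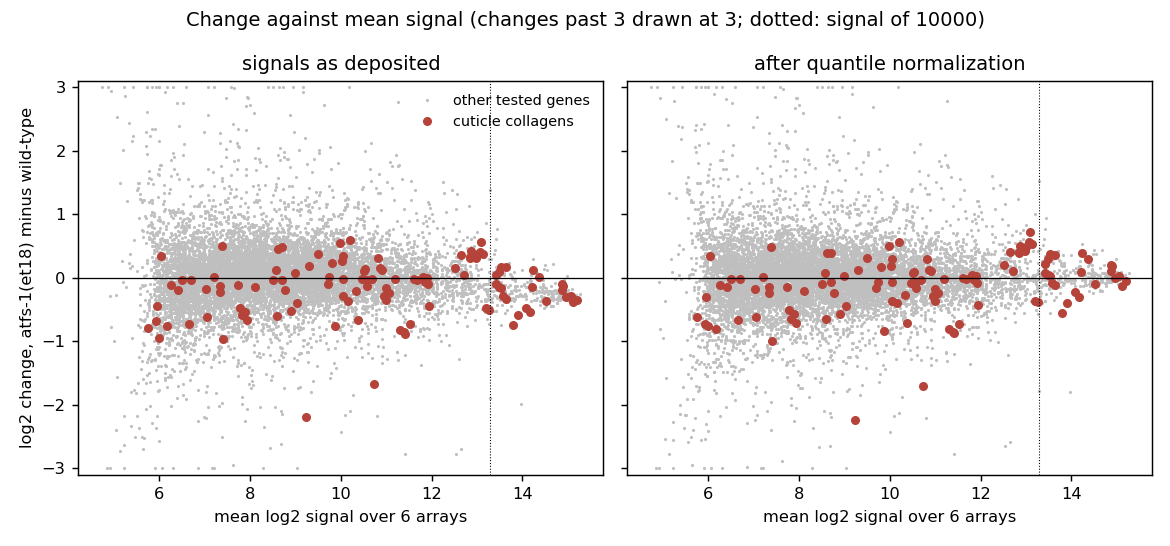
Log2 change (atfs-1(et18) minus wild-type) against the mean log2 signal over 6 arrays, with cuticle collagens in red and other tested genes in grey, from the signals as deposited on the left and after quantile normalization on the right. To the right of the dotted line at a signal of 10000, both kinds of gene lie mostly below 0 in the left plot, with medians of -0.19 and -0.23, and around 0 in the right one.

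The kind of probe set moved with the changes too. Of the 23 collagen genes represented by an x_at probe set, 22 had a negative change, with a median of -0.30 (15 of 23 and -0.10 after quantile normalization). Of all 475 tested genes on x_at probe sets, 62.5% had a negative change, with a median of -0.11. The 30 collagens on s_at probe sets, which also match several transcripts, had 17 negative changes and a median of -0.02. For the 60 on an at probe set, taken to bind 1 gene, 35 changes were negative and the median was -0.03, but it was 0.08 without wild-type replicate 1 and -0.17 without wild-type replicate 3. A further 17 probe sets are annotated to several collagen genes at once and lie outside the members. All 17 passed the filter with a negative change (14 of 17 after quantile normalization) and 1 was called lower, where 1.30% of all 13792 probe sets were. Several probe sets were tested for 11 collagen genes, and in 2 of these their signs differed.

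By chromosome, the collagens of chromosome V had the lowest median change. Of 22 tested there, 18 were negative, with a median of -0.38 (-0.18 after quantile normalization), while the 1967 other genes of that chromosome had a median of 0.01. The 8 with a mean signal over 10000 were all negative (median -0.49), and each of these is on an x_at probe set. The 14 others had a median of -0.12. The 11 collagens of chromosome V represented by an at probe set had a median of -0.19 and 8 negative changes. On chromosome X, 15 of 17 collagens were negative with a median of -0.11, beside -0.15 for the 1423 other genes of that chromosome. That median of 17 collagens was -0.02 with 10 negative changes without wild-type replicate 1, and -0.27 with 11 negative without atfs-1(et18) replicate 2. Medians on chromosomes I to IV lay between -0.20 and 0.02.

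Replicates of 1 genotype also differed. The median SD within genotypes was 0.30 on the log2 scale for the collagens (range 0.09 to 1.03) and 0.28 for all genes. Wild-type replicates 1 and 3 stood apart. Of the 113 collagens, 69 had their highest wild-type signal in replicate 1 (61.1%, against 48.5% of all genes), and 79 had their lowest in replicate 3 (69.9%, against 38.7%). Among the 88 collagens with a mean signal up to 10000 this was 62 and 61 genes, and their medians were 0.24 above the wild-type mean in replicate 1 and 0.22 below it in replicate 3, beside 0.09 above and 0.04 below for the 10235 other genes of that signal class. No test was made of these shares. Among the mutant arrays, replicate 3 was highest for 47 collagens (41.6%, against 41.4% of all genes). Replicate 2 was highest for 44 (38.9%, against 32.6%) and replicate 1 for 22 (19.5%, against 26.0%).

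**Figure D5:**
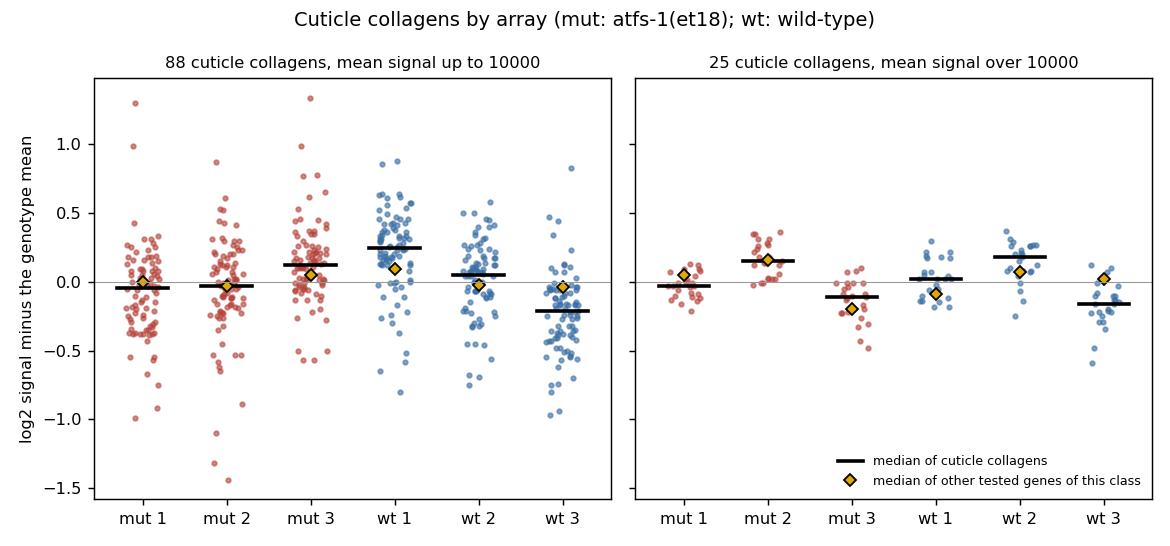
Log2 signal minus the mean of its genotype for each tested cuticle collagen on each array, with atfs-1(et18) arrays in red and wild-type arrays in blue, for collagens with a mean signal up to 10000 and over it. Black lines are medians of the collagens and yellow diamonds medians of the other tested genes of that class. Up to a signal of 10000, wild-type replicate 1 lies high (median 0.24) and wild-type replicate 3 low (median -0.22).

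The members with the highest SD within genotypes were col-69, col-148, col-163, col-8, col-20 and col-150, with SDs of 1.03, 0.97, 0.93, 0.91, 0.83 and 0.76. Signals of col-20 were 244, 205 and 627 in atfs-1(et18) worms and 863, 296 and 425 in wild-type worms, high in mutant replicate 3 and wild-type replicate 1. The same 2 arrays were the highest of their genotype for germline markers. Medians of the 9 germline markers, relative to the genotype mean, were 0.00, -0.16 and 0.15 in atfs-1(et18) replicates 1 to 3 and 0.64, -0.10 and -0.53 in wild-type replicates 1 to 3. Wild-type replicate 1 was the highest wild-type array for 9 of 9 germline markers and replicate 3 the lowest for 8 of 9. Their part in the collagen differences between replicates was not tested. With atfs-1(et18) replicate 3 and wild-type replicate 1 left out, a setting added after the data were seen, col-39 and col-41 were still called and col-146 was not (limma adjusted p = 0.0696).

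Genes that make, modify or regulate the cuticle gave no calls in the lists examined. For enzymes of collagen modification and processing, 0 of 12 tested genes passed. At an unadjusted p under 0.05, 3 of the 12 were lower and 0 higher, where 7.35% of all genes were lower. The protein disulfide isomerase gene pdi-2, a subunit of the prolyl 4-hydroxylase of collagen, had signals of 10389, 11562 and 9401 in atfs-1(et18) worms against 12540, 13343 and 16010 in wild-type worms. Its change of -0.42 ± 0.15 (SE) did not pass (limma adjusted p = 0.193), nor did that of tsp-15, the tetraspanin needed by the cross-linking oxidase (-0.65 ± 0.23, limma adjusted p = 0.195). Among the wild-type arrays, replicate 1 was highest for 8 of these 12 enzyme genes (66.7%, against 48.5% of all genes). Replicate 3 was lowest for 10 (83.3%, against 38.7%). Of 17 cuticlin genes 0 passed, the smallest p being that of cut-4, with signals of 337, 354 and 350 in atfs-1(et18) worms against 559, 529 and 500 in wild-type worms (-0.61 ± 0.16 SE, limma adjusted p = 0.0768), followed by cut-2 (-0.35 ± 0.15 SE).

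The collagens of other tissues gave 0 calls of 3, with changes of -0.38 ± 0.16 for mec-5, of the touch neuron matrix, and of -0.27 ± 0.14 for the basement membrane collagen gene let-2 (SE). In the BMP-like body-size pathway 0 of 10 passed. The smallest p was that of sma-10, a membrane protein gene of that pathway, with signals of 160, 213 and 244 in atfs-1(et18) worms against 326, 446 and 453 in wild-type worms (-1.0 ± 0.23 SE, limma adjusted p = 0.0530, range 0.00529 to 0.215). The Smad gene sma-4 had a change of 0.42 ± 0.17 (SE, limma adjusted p = 0.261). Of 8 regulators of the cuticle and of stage 0 passed, with nhr-23, a nuclear receptor that drives molting, at -0.50 ± 0.20 and the hypodermal GATA factor gene elt-3 at -0.35 ± 0.14 (SE). Of 8 molting-cycle markers 0 passed, with qua-1 at 0.35 ± 0.13 and fbn-1, a fibrillin-like gene, at -0.45 ± 0.26 (SE). With 4.06% of all genes called, 0 calls in lists of 3 to 17 genes are near the background.

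Markers of other tissues moved as follows beside the collagens. Hypodermis markers had 0 calls of 5, with a median change of -0.23 and 5 of 5 negative (vab-10 at -0.37 ± 0.21 and wrt-10 at -0.23 ± 0.14, SE). Muscle markers had 0 calls of 6, with 6 of 6 negative, a median of -0.27, unc-22 at -0.74 ± 0.17 (SE, limma adjusted p = 0.0501) and unc-54 at -0.38 ± 0.15 (SE). Neuron markers had a median of -0.34, with rab-3 at -0.51 ± 0.16 and egl-3 at -0.32 ± 0.15 (SE), intestine markers one of -0.08, with ifb-2 at -0.40 ± 0.25 and asp-1 at -0.27 ± 0.21 (SE), germline markers one of 0.12, with htp-3 at 0.52 ± 0.29 and syp-1 at 0.52 ± 0.30 (SE), and sperm markers one of -0.05, with spe-9 at -0.55 ± 0.40 and ssp-16 at 0.39 ± 0.30 (SE), all without a call. Yolk genes, expressed in the intestine from late L4 on, fell in 4 of 4 cases (1.37% of all genes fell), with a median of -3.1. Among them were vit-5, vit-4 and vit-2 (-4.37, -3.95 and -2.25). Signals of vit-5 in atfs-1(et18) worms were 82.4, 31.8 and 127, near the 40th percentiles of those arrays (72.2, 62.8 and 68.3), so that the size of its fall is uncertain. Probe sets of vit-5 and vit-4 are x_at sets, and vit-2 was not called in 3 of 19 alternatives. Whether stage or tissue make-up had a part in the collagen changes was not tested.

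The 33 collagen genes that did not pass the filter had signals between 2.29 and 135, and 21 of them lay at or below the 40th percentile on every array. The gene col-99, which encodes a transmembrane collagen, was among the 33, with signals of 77.0, 112 and 32.0 in atfs-1(et18) worms and 62.4, 67.0 and 59.5 in wild-type worms. For 3 of the 33 genes, picked after their values were seen, every mutant array lay above every wild-type array, and for 1 below. Among all genes that passed the filter, these shares were 12.9% and 10.4%. The 3 are col-101, col-102 and col-105, on chromosome IV, which holds 40 of the 146 collagens and 29 of the 113 tested. Signals of col-102 were 59.6, 127 and 88.0 in atfs-1(et18) worms against 10.3, 14.9 and 11.6 in wild-type worms. Those of col-101 were 121, 89.3 and 53.2 in atfs-1(et18) worms and 34.7, 31.5 and 28.2 in wild-type worms, and those of col-105 were 35.4, 44.5 and 49.2 in atfs-1(et18) worms and 13.9, 11.4 and 9.65 in wild-type worms. For col-105 no array of either genotype lay above the 40th percentile, and for col-101 only 2 mutant arrays did. With no filter, limma called col-102 higher (adjusted p = 0.0333) and neither of the other two (0.243 and 0.200), in a fit that called 2.24% of 17118 genes. No wild-type array lay above the 40th percentile for col-102 and 2 of 3 mutant arrays did, so that its level was at least 1.23-fold higher against that percentile. The probe set of col-102 is an x_at set, which can bind other transcripts.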

How the data were processed

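The deposited table gives an intensity for every probe set, a linear signal computed with MAS5 per the submitters' processing notes, from arrays hybridised with biotin-labelled cRNA per the labels. The MAS5 version, its target, its detection calls and a genome build are not given here. The equal trimmed means show a scaling to 1 target before deposit. Background is subtracted in MAS5, which leaves dim signals uncertain.

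All fits used log2 of the signal, without an offset or another scaling. Of 22548 probe sets, leaving aside 77 controls, 13792 had 3 or more arrays over the array's own 40th percentile and entered the fit. Platform annotation supplied the names, brought up to date by gene identifier with the WBcel235 gene table (matching 20701 of 20766 probe sets with 1 symbol, no member's symbol changing). The tested probe set of highest mean stands for its gene. The difference, mutant minus wild-type, was fitted with limma 3.58.1 under R 4.3.3 (lmFit, then eBayes with trend), with two-sided p-values adjusted by Benjamini-Hochberg across the 13792 and a threshold of 0.05. An exact test cannot go below 0.1 with 3 arrays against 3. The gene order of WBcel235 served only to find neighbours.

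Members, lists and the rule for named genes were chosen with earlier results of these data known. The rule names called members, members not called col-N, col-19, the 6 most variable and the 5 of highest signal, the called or smallest-p genes of each list, and atfs-1. Other genes are said to have been picked after their values were seen. Signals of different probe sets were ranked only to choose and class genes, not as transcript abundance. Tried besides were quantile normalization, median scaling, offsets (16, 64), filters (none, 60th percentile), a prior without trend and a robust one, array weights, a replicate block, omission of s_at and x_at probe sets, averaging of probe sets and omission of each array. A setting without 2 arrays was added after the data were seen. Replicate numbers were not taken as pairs, since the deviations of same-numbered arrays correlated at 0.171, 0.175 and -0.397. The plots were made in Python 3.11.15 using matplotlib 3.10.9.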

Additional observations from a re-analysis of the deposited data

How the results depend on the processing

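Of 1070 comparisons of 58 named genes with their alternatives, 1000 kept direction and side of the threshold, 23 newly passed it and 12 no longer did. The other 35 had the opposite sign, all in genes with no call in either setting. With the offset of 64, 5 of 113 collagens were called lower (474 of 10613 genes called), and with the filter at the 60th percentile 5 of 97 (441 of 7308). Without probe sets that bind several transcripts 1 of 64 was (291 of 7453), and with no filter 1 of 146 was called higher (384 of 17118). Array weights gave 6 higher and 17 lower. Leaving out single arrays gave 0 to 2 higher and 1 to 4 lower. The median collagen change ran from -0.22 to -0.07 in those fits. It was -0.06 after quantile normalization, -0.04 without the arrays of highest germline level and -0.03 without s_at and x_at probe sets. None of the 19 alternatives turned the sign of this median. With the replicate number as a block, 4 collagens were called lower (col-118 in addition) and 267 genes in all against 431. Not every array correlated best with its own number. Signs turned with quantile normalization for dpy-4 (0.18), dpy-13 (0.11), rol-8 (0.04), col-73 (0.03), asp-1 (0.05) and dpy-8 (0.00), and with median scaling for dpy-5 (-0.03), sqt-1 (-0.01) and sqt-2 (-0.02). They turned with array weights for dpy-2 (0.12), dpy-5 (-0.01), dpy-9 (0.23) and lon-3 (0.08), and for rol-8 without probe sets of several transcripts (0.24) or with the mean of its probe sets (0.05). Without the arrays of highest germline level they turned for dpy-2 (0.05), dpy-4 (0.01), dpy-9 (0.25) and lon-3 (0.05). Over single arrays left out, changes ran from -0.11 to 0.07 for dpy-2, -0.24 to 0.03 for dpy-3, -0.12 to 0.13 for dpy-5, -0.07 to 0.08 for dpy-8, -0.17 to 0.22 for dpy-9, -0.22 to 0.12 for lon-3, -0.09 to 0.13 for sqt-1, -0.15 to 0.27 for sqt-2 and -0.94 to 0.10 for col-8. The cause was not tested. Signals of dim members lie close to background, which limits what their changes can show.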
